A study of Drosophila melanogaster with 29 samples.

Results

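The autophagy genes and the genes of the vacuolar H+-ATPase were examined in nuclear RNA of *Drosophila melanogaster* photoreceptors. Members were the genes whose FlyBase identifier maps to a symbol starting with Atg and a digit, or with Vha. The name table held 53 such genes, 20 *Atg* and 33 *Vha*, and 38 of them had a row among the 7602 genes of the deposited table, 19 in each family. Membership rested on gene names and not on measured values.

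Autophagy encloses cytoplasm in a double membrane that fuses with the lysosome. The *Atg* genes encode the kinase complex that starts this, the lipid kinase complex, the lipid transfer proteins and the 2 ubiquitin-like conjugation systems that attach Atg8 to the membrane. The vacuolar H+-ATPase, or V-ATPase, pumps protons into lysosomes, endosomes and synaptic vesicles. Its V1 sector faces the cytosol and splits ATP, and its V0 sector carries the protons through the membrane. Several of its subunits are encoded by more than 1 gene in flies, and many of the extra genes are known for use in the male germ line or in the gut. Fly photoreceptors turn over large amounts of rhodopsin-bearing membrane through endosomes and lysosomes, and both systems are studied in the eye for that reason.

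The 3 libraries came from male flies aged 10 days after eclosion, kept in 12:12 light:dark cycles at 25 degrees C. All were of one genotype, mutant for *w* and *ry* (ry[506]), with a UAS-GFP-Msp300KASH transgene marked by w[+mC] at attP2 and an rh1-GAL4 driver marked by ry[+t7.2] on the same chromosome. The driver uses the promoter of the major rhodopsin gene, so the tag labels outer photoreceptors, and RNA was taken from nuclei isolated by their GFP tag from fly heads. The tag sits in the outer nuclear membrane through the KASH domain that Msp300 lends it. The labels give 1 RNA group with no untreated or other control, and do not state whether the replicates came from separate cohorts, so the tests below measure only the spread between these libraries. The 26 samples of chromatin assays were not analysed here.

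The depth was 3781302 recovered reads in replicate 1, 3051440 in replicate 2 and 3769863 in replicate 3. Values are normalized counts, which are reads divided by the size factor of the library, and 1 read was worth 1.29, 1.49 and 1.32 normalized counts. The 9 photoreceptor markers summed to 252856 to 261560 normalized counts, against 650 to 698 for 6 glial, 503 to 588 for 6 other neuronal, 354 to 383 for the 6 of 7 muscle markers and 360 to 402 for the 5 of 7 fat body and blood cell markers with a row. The 6 markers of cone and pigment cells summed to 8855 to 9580, of which *w*, which the transgene also carries, made 6630 on average. Of the 23 testis markers, 7 had a row, summing to 1318 to 1550 and led by *bol* at 1002. Of these 7, 3 differed between libraries in the chi-square test of reads used below for the members, and were lowest in replicate 3: *sowi* with 111, 170 and 39 reads, *s-cup* with 158, 171 and 74, and *h-cup* with 25, 32 and 5. No marker with a row was at 0 in all 3 libraries. In nuclei taken in bulk, fewer cells of a type and less RNA per cell cannot be told apart.

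Levels of different genes were compared per kb of gene span, the distance from the first to the last annotated base, introns included. Gene spans came from the RefSeq annotation of Release 6 (dm6), the build that the submitters' processing notes name. Whether reads in introns were counted is not given in the sources used here, so this scale lowers genes with long introns if they were not.

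The V-ATPase genes were far from equal in level. Together they held 0.207% ± 0.009 of all normalized counts (SD, n = 3), and *VhaSFD* alone held 47.8% ± 0.8 of that. *VhaSFD*, *Vha100-1*, *Vha16-1* and *Vha68-1* together held 76.6% ± 0.8 of the family's normalized counts. The median *Vha* gene with a row had 96.4 normalized counts, against 56.8 for all genes in the table, and 13 of 19 lay above the table's median. Per kb of gene span the median was 75.3 against 19.6, 16 of 19 lay above it, and 7 of 19 were among the top 10% of genes. These 7 include *VhaM9.7-c*, whose value is uncertain as described below.

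**Figure D1:**
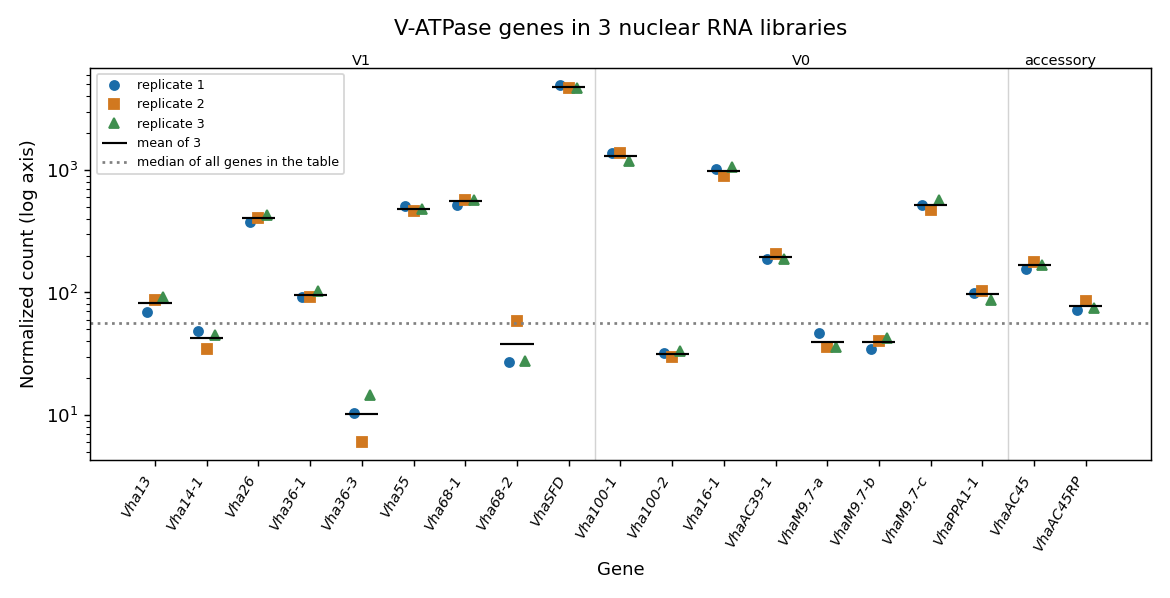
Normalized counts (log axis) of the 19 V-ATPase genes with a row in each of 3 nuclear RNA libraries, ordered by sector; points are libraries, black bars their means, and the dotted line is the table median (56.8). *VhaSFD* lies above all others, and the points of most genes lie close to their mean.

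In the V1 sector, *VhaSFD* (2L, 16722883 to 16727826) encodes subunit H, which regulates the coupling of V1 and V0. It had 4907, 4699 and 4639 normalized counts in replicates 1, 2 and 3, rank 172 of the table. The 3 libraries were close to each other, with a coefficient of variation of 2.96%. *Vha68-1*, which encodes the catalytic subunit A, had 518, 571 and 574, and *Vha55*, the gene of subunit B that alternates with A in the ring, had 508, 462 and 485. On the scale of normalized counts per kb of gene span, *VhaSFD* stood at 960 ± 28, *Vha68-1* at 166 ± 9 and *Vha55* at 119 ± 6 (SD, n = 3). The level of *VhaSFD* per kb was thus 5.78-fold that of *Vha68-1*, with a log2 ratio of 2.53 ± 0.12. An exact two-sided sign-flip permutation test over 3 libraries cannot go below p 0.25, and the genes set against each other were picked by their levels, so the ratios between genes are given as descriptions. Against *Vha55* the log2 ratio was 3.01 ± 0.05. The annotation places a microRNA gene, *mir-1006*, of 64 bases inside the span of *VhaSFD*, and that gene had no row.

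Of the other V1 genes, *Vha26*, *Vha36-1*, *Vha14-1* and *Vha13* were nearer to each other. *Vha68-2* and *Vha36-3*, described below, stood lower, at 8.79 ± 4.16 and 6.99 ± 2.91 normalized counts per kb of gene span. *Vha26*, which encodes stalk subunit E, stood at 112 ± 7 normalized counts per kb of gene span. *Vha36-1*, the gene of the central shaft subunit D, stood at 89.5 ± 6.5 on the same scale. *Vha14-1*, encoding subunit F, was at 64.8 ± 11.4 per kb, and *Vha13*, encoding stalk subunit G, at 60.2 ± 8.4 per kb, so the order of these last genes was within the spread between libraries. *Vha44*, the gene of subunit C, had no row under its current identifier. The table held 49 identifiers that the name table did not match, so no level is given for it.

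In the V0 sector, *Vha100-1* (3R, 29131193 to 29137980) encodes the form of subunit a that is known from neurons, where it serves synaptic vesicles and endolysosomes. It had 1374, 1377 and 1192 normalized counts, and was lowest in replicate 3. *Vha16-1*, which encodes the proteolipid subunit c of the rotating ring, had 1017, 886 and 1068, and was lowest in replicate 2. *VhaAC39-1*, the gene of subunit d that joins the ring to the shaft, had 189, 205 and 188. *VhaPPA1-1*, encoding the larger proteolipid c″, had 99.0, 103 and 87.3. The levels per kb of gene span were 194 ± 16 (*Vha100-1*), 126 ± 12 (*Vha16-1*), 87.3 ± 4.2 (*VhaAC39-1*) and 55.7 ± 4.7 (*VhaPPA1-1*) normalized counts. They followed this order in every library. By median per kb, the 9 V1 genes with a row (89.5) and the 8 V0 genes with a row (71.5) were close, and the range within each sector was wide, from 6.99 to 960 in V1 and from 3.58 to 613 in V0. The value of 613 is that of *VhaM9.7-c*, which is uncertain as described below, and *Vha100-1* at 194 came next.

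The accessory gene *VhaAC45* encodes a glycoprotein bound to V0 and had 156, 178 and 167 normalized counts. *VhaAC45RP*, which encodes a related protein, had 72.0, 85.1 and 75.4, below *VhaAC45* in every library. The log2 ratio of *VhaAC45RP* to *VhaAC45* per kb of gene span was −0.74 ± 0.04.

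V-ATPase genes were then grouped by how widely they are known to be used in the fly. The classes rest on general knowledge of the family, not on a file, and were set with earlier results of these data known, so the counts and differences between them are descriptions. Of 17 broadly used genes, counting the neuronal *Vha100-1*, 16 had a row and *Vha44* did not. Of 16 tissue-restricted paralogs, 3 had a row, *Vha36-3*, *VhaM9.7-c* and *VhaAC45RP*, and 13 did not. Among all protein-coding genes of the annotation, 54.0% had a row. The 13 were *Vha68-3*, *Vha36-2*, *Vha14-2*, *Vha100-3*, *Vha100-4*, *Vha100-5*, *Vha16-2*, *Vha16-3*, *Vha16-4*, *Vha16-5*, *VhaPPA1-2*, *VhaAC39-2* and *VhaM9.7-d*. The filter that chose the table's genes is not given in the sources used here, and 2 genes at 0 in all 3 libraries have rows, so a missing row sets no limit on a level.

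Within each subunit that had more than 1 gene with a row, the lower paralogs were compared with the highest in the same library. For subunit a, *Vha100-2*, the form known from epithelia and other tissues, had 32.2, 29.9 and 33.0 normalized counts from 25, 20 and 25 reads. The log2 ratio of *Vha100-2* to *Vha100-1* per kb of gene span was −5.71 ± 0.18, a 52.4-fold lower level. For subunit A, *Vha68-2* had 27.0, 58.3 and 27.8 normalized counts from 21, 39 and 21 reads, with replicate 2 apart from the others. Its log2 ratio to *Vha68-1* per kb was −4.30 ± 0.58, or 19.6-fold lower, and −4.63 without replicate 2. For subunit D, *Vha36-3* had 10.3, 5.97 and 14.5 normalized counts from 8, 4 and 11 reads, the lowest level of all members before division by length. Its log2 ratio to *Vha36-1* per kb was −3.63 ± 0.50. Each pair was set as lower over higher, so the sign of a ratio was fixed by that choice, and its size in each library is the measurement.

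Subunit e, a small membrane subunit, went the other way: the paralog classed as tissue-restricted had the highest value. *VhaM9.7-c* had 518, 473 and 567 normalized counts, against 46.3, 35.8 and 35.7 for *VhaM9.7-a* and 34.7, 40.3 and 42.3 for *VhaM9.7-b*. Their log2 ratio to *VhaM9.7-c* per kb of gene span was −3.54 ± 0.25 for *VhaM9.7-a* and −4.37 ± 0.17 for *VhaM9.7-b*. The span of *VhaM9.7-c* (3L, 4186018 to 4186865) lies wholly inside that of *Teh2*, which encodes an auxiliary subunit of the sodium channel and had 2846 ± 261 normalized counts. It also lies wholly inside *CG18675*, which had 19.6 ± 2.6. The log2 ratio of *VhaM9.7-c* to *Teh2*, in normalized counts, was −2.45 in replicate 1, −2.45 in replicate 2 and −2.46 in replicate 3, with an SD of 0.0051. Counting error alone corresponds to an SD of 0.081 for this ratio, so nothing is read from the smaller spread. Strand use in counting is not given, so reads of *VhaM9.7-c* and *Teh2* cannot be told apart here, and the value of *VhaM9.7-c* is uncertain. It is the single *Vha* gene with a row whose span overlaps another gene with a row.

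**Figure D2:**
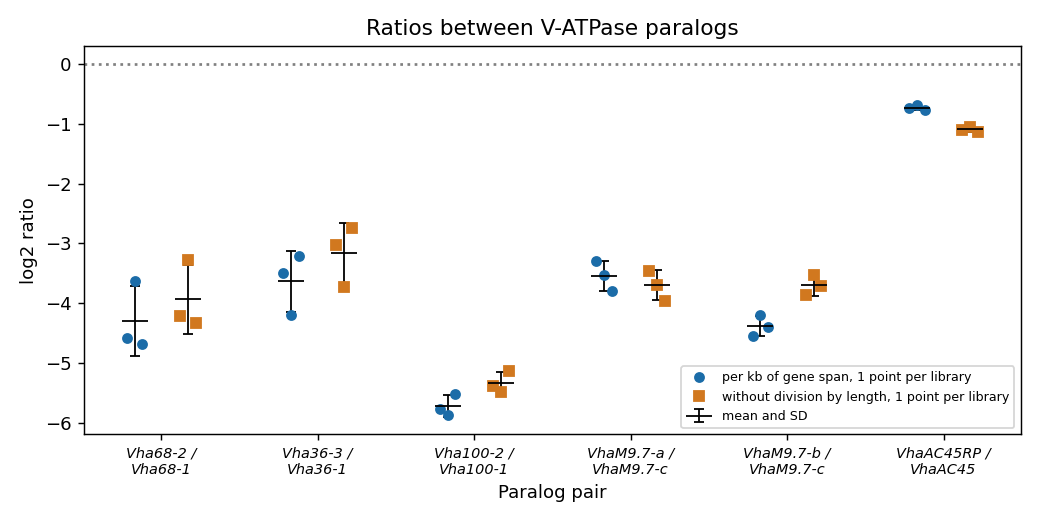
Log2 ratio of the lower to the highest paralog of 6 pairs of V-ATPase genes, per kb of gene span (circles) and without division by length (squares); points are libraries and bars show mean ± SD (n = 3). The pairs were set as lower over higher, which fixes the sign; the mean ratios run from −5.71 for *Vha100-2* to −0.74 for *VhaAC45RP* per kb.

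The median log2 level per kb of gene span of the 16 broadly used genes exceeded that of the 3 tissue-restricted genes with a row by 0.85 ± 0.09. With members that overlap another gene with a row left out, which removed *VhaM9.7-c*, the difference was 2.16 ± 0.28. Each ± is the SD over libraries and does not measure the spread between genes. The difference rests on 3 genes in 1 class, and on 2 after that removal. Per kb the 3 stood at 6.99 (*Vha36-3*), 44.9 (*VhaAC45RP*) and 613 (*VhaM9.7-c*), so their median was the value of *VhaAC45RP*. Many of the tissue-restricted paralogs are known from the testis, and 16 of the 23 testis markers had no row either. *Vha36-3* was highest in replicate 3, but from 8, 4 and 11 reads, and was not called in the chi-square test (adjusted p 0.606). Of the testis markers with a row, *sowi*, *s-cup*, *h-cup* and *twe* had their fewest reads there, and *t-cup*, *mia* and *bol* their most. The part of other tissues in these values was not tested.

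The *Atg* genes held 0.0995% ± 0.0024 of normalized counts (SD, n = 3). Of this, *Atg17* and *Atg1* together held 54.8% ± 2.3. The median *Atg* gene with a row had 117 normalized counts, and 13 of 19 lay above the median of the table. Per kb of gene span the median was 32.6, 15 of 19 lay above the table's median, and 2 of 19 were among the top 10%.

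**Figure D3:**
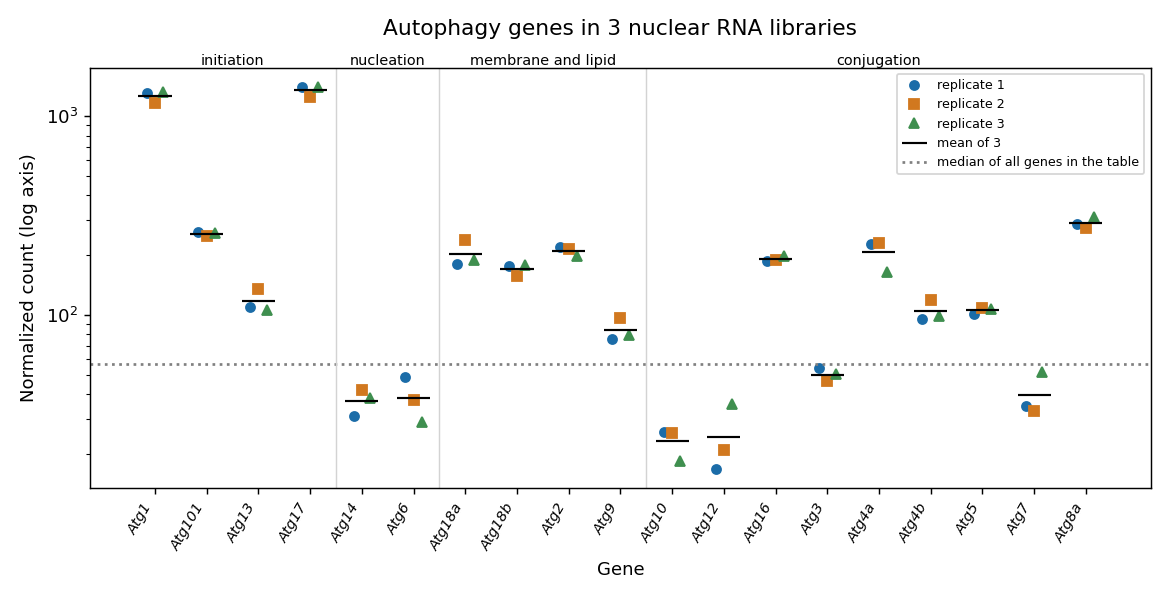
Normalized counts (log axis) of the 19 autophagy genes with a row in each of 3 nuclear RNA libraries, ordered by step of autophagy; points are libraries, black bars their means, and the dotted line is the table median (56.8). *Atg1* and *Atg17* of the initiation complex lie above 1000 and both nucleation genes below the dotted line.

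The 4 genes of the initiation complex were the highest group, with a median of 96.9 normalized counts per kb of gene span. *Atg17*, the fly counterpart of the mammalian scaffold FIP200, had 1408, 1256 and 1401 normalized counts. *Atg1*, the kinase that starts autophagy, had 1311, 1162 and 1321, and both were lowest in replicate 2. The 2 genes had nearly the same ratio in every library, with a log2 ratio in normalized counts of 0.10 ± 0.01. Counting error alone corresponds to an SD of 0.066 for this ratio, so nothing is read from the smaller spread. Per kb, *Atg17* stood at 133 ± 8 and *Atg1*, whose span is 20.7 kb, at 61.1 ± 4.3. *Atg101*, which stabilises the kinase complex through Atg13, had 262, 249 and 258 normalized counts, or 139 ± 4 per kb. Its span lies wholly inside that of *S6KL*, which had 311 normalized counts. *Atg13*, the regulatory subunit, had 109, 136 and 106, or 39.0 ± 5.5 per kb.

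The 2 nucleation genes belong to the lipid kinase complex and were below the table's median of 56.8 in normalized counts. *Atg6*, the fly Beclin 1, had 48.9, 37.3 and 29.1 normalized counts from 38, 25 and 22 reads. *Atg14*, which directs that complex to autophagy, had 30.9, 41.8 and 38.3 from 24, 28 and 29 reads. Their levels of 24.0 ± 6.2 and 18.5 ± 2.8 normalized counts per kb of gene span overlapped within the spread between libraries. On that scale both lay near the table's median of 19.6.

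Genes for membrane supply and lipid binding had a median of 31.5 normalized counts per kb of gene span, against 32.6 for all *Atg* genes with a row. *Atg2*, a lipid transfer protein, stood at 33.3 ± 1.8 normalized counts per kb of gene span. *Atg9*, the membrane protein of the vesicles that seed the autophagosome, stood at 29.7 ± 4.0 per kb. The phosphoinositide-binding *Atg18a* and *Atg18b* stood at 47.5 ± 7.1 and 20.7 ± 1.4 per kb. The log2 ratio of *Atg18b* to *Atg18a* was −1.19 ± 0.31 per kb, and −0.24 ± 0.31 in normalized counts, which is less than the spread between libraries.

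In the conjugation systems, *Atg8a*, the ubiquitin-like protein that marks autophagosomes, was the highest of its group. It had 286, 273 and 311 normalized counts, or 83.7 ± 5.5 per kb of gene span. *Atg8b*, its paralog, had no row. The enzymes that attach Atg8 were lower: *Atg3*, the conjugating enzyme, stood at 27.9 ± 2.1 per kb and *Atg7*, the activating enzyme, at 8.67 ± 2.25 per kb. The log2 ratio of *Atg8a* to *Atg3* per kb was 1.56 ± 0.11. Of the proteases that process Atg8, *Atg4a* had 229, 230 and 164 normalized counts and was lowest in replicate 3. *Atg4b* had 95.2, 119 and 99.1, below *Atg4a* in every library. Per kb their log2 ratio was −0.49 ± 0.27, and the span of *Atg4a* overlaps that of *CG4629*, which had 1289 normalized counts, over 51.2% of its length.

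Of the second conjugation system, *Atg16* had 187, 190 and 197 normalized counts and *Atg5* 102, 109 and 107. Both varied little between libraries, with coefficients of variation of 2.81% and 3.63%. *Atg12*, the ubiquitin-like protein joined to Atg5, had 16.7, 20.9 and 35.7 from 13, 14 and 27 reads, and was highest in replicate 3. *Atg10*, the enzyme that joins them, was the lowest *Atg* gene at 25.7, 25.4 and 18.5 from 20, 17 and 14 reads. After division by span, *Atg12* stood at 41.2 ± 16.8, *Atg16* at 24.4 ± 0.7, *Atg5* at 11.6 ± 0.4 and *Atg10* at 6.93 ± 1.22 normalized counts per kb. *Atg5* lies wholly inside the span of *CG1677*, which had 722 normalized counts. In all, 9 of the 19 *Atg* genes with a row overlap another gene with a row, against 1 of the 19 *Vha* genes, and how reads in such overlaps were assigned is not given. The overlap covers the whole span of *VhaM9.7-c*, *Atg101* and *Atg5*, but 3.05% of that of *Atg14*, 6.46% of *Atg4b* and 10.8% of *Atg12*. The log2 ratio to the overlapping gene had an SD of 0.20 for *Atg4a* with *CG4629*, against 0.13 from counting error. For *Atg101* with *S6KL* the SD was 0.094 against 0.142, and for *Atg5* with *CG1677* 0.102 against 0.175, both below counting error.

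Which family stood higher depended on the scale. Per kb of gene span, the median log2 level of the *Vha* genes exceeded that of the *Atg* genes by 1.31, 1.22 and 1.28 in replicates 1, 2 and 3, or 1.27 ± 0.04, a 2.41-fold higher level. Without division by length the difference was −0.20 ± 0.18, with *Vha* lower in 3 of 3 libraries by an amount close to the spread. *Vha* genes with a row had a median span of 2.21 kb, and *Atg* genes with a row 3.46 kb, against 3.49 kb in the table.

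**Figure D4:**
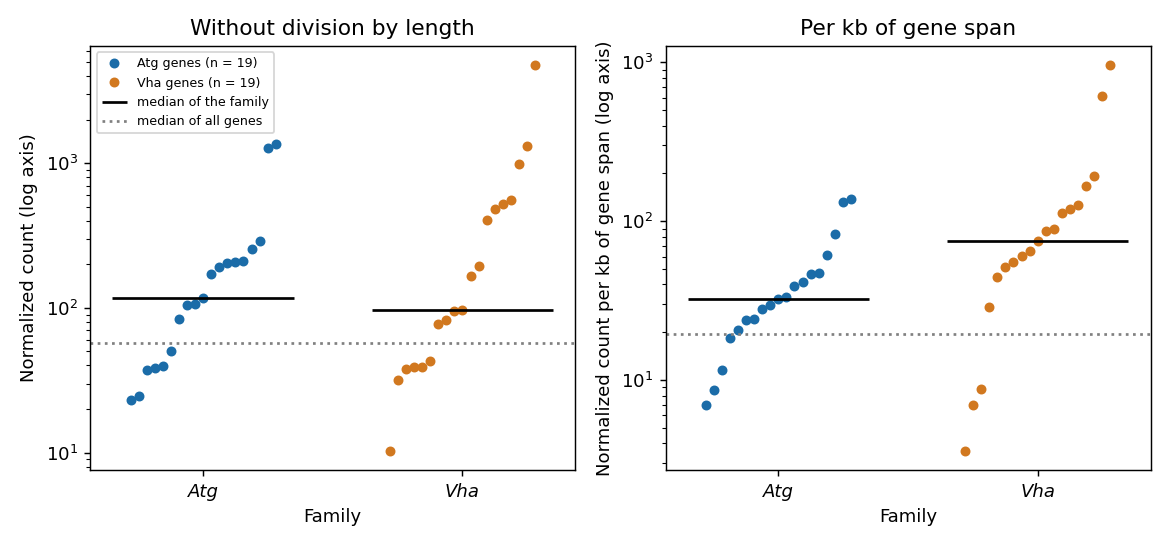
Mean level over 3 libraries of each *Atg* (n = 19) and *Vha* (n = 19) gene with a row, as normalized counts (left) and per kb of gene span (right), both on log axes; black bars are family medians and dotted lines the medians of all genes. On the left the *Atg* median (117) is above that of *Vha* (96.4), and on the right the *Vha* median (75.3) is above that of *Atg* (32.6).

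To see which genes differed between the libraries by more than counting error, the reads of each gene were set against the size factors in a chi-square test. P-values were adjusted by the Benjamini-Hochberg method over all 6903 genes with a mean of at least 10 normalized counts. All 38 members with a row reached that mean, and 3 were called at an adjusted p under 0.05, against 9.76% of all genes tested, a similar share. The share called grew with depth, from 2.28% of genes with a mean of 10 to 50 and 3.12% of those with 50 to 200, to 14.4% with 200 to 1000 and 43.2% with 1000 to 10000. *Vha100-1* was called (adjusted p 0.0229) with a highest to lowest ratio of 1.15. *Vha16-1* was called (adjusted p 0.0242) with a ratio of 1.21. *Vha68-2* was called (adjusted p 0.0289) with a ratio of 2.16.

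These calls were small in size except for *Vha68-2*, and depended on the settings. *Vha16-1* was not called when libraries were scaled to equal totals, by trimmed mean of M-values or by recomputed median of ratios. *Vha100-1* and *Vha68-2* were called under all of these scalings. Without replicate 3 no member was called, and without replicate 2 the single call was *Vha100-1*. *Vha68-2* was not called with any of the libraries left out. By the chi-square test 0 of 19 *Atg* genes were called, while 5 had an unadjusted p under 0.05, as did 5 *Vha* genes, against 20.9% of all genes tested. *Atg4a* was nearest (adjusted p 0.0569) and was called under equal totals and under recomputed median of ratios, as *Atg18a* was under equal totals. *Atg4a* was also called with a minimum mean of 50 and without replicate 1. Whether the families differ in spread was not tested. *VhaSFD*, the deepest member, was not called under the authors' scaling (adjusted p 0.215) and was called under equal totals.

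**Figure D5:**
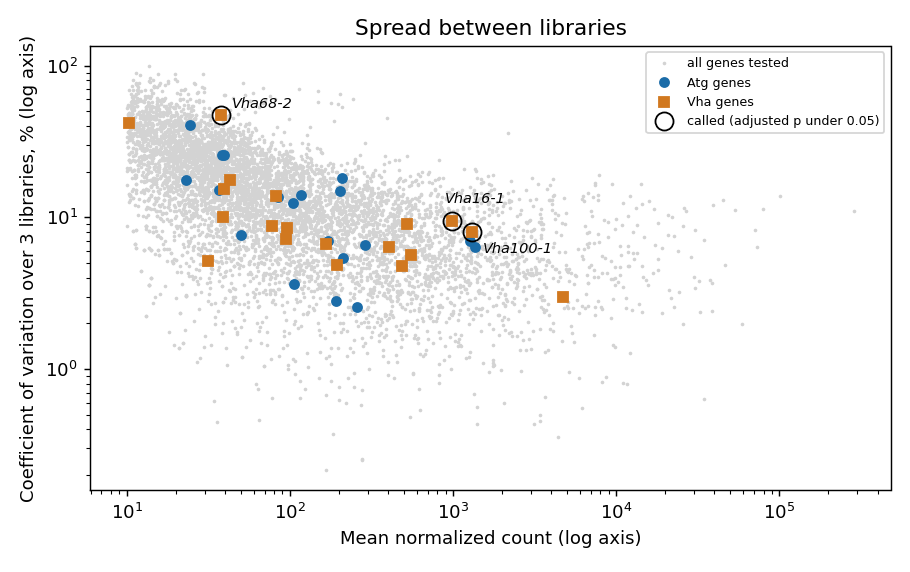
Coefficient of variation over 3 libraries against mean normalized count (both log axes) for all 6903 genes tested (grey), *Atg* genes (circles) and *Vha* genes (squares), with the 3 called members ringed. The members lie within the cloud of all genes, and *Vha68-2* lies near its upper edge at 47.3%.

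Genes of the pathway with other names were looked up from a list of 29 names, of which 27 were in the name table and 25 had a row. Of these, 21 lay above the table's median in normalized counts and 19 per kb of gene span. Of 24 tested, 1 was called, against 9.76% of all genes tested and 43.2% of those with a mean of 1000 to 10000, where this gene lies. It was *Rbcn-3A*, which with *Rbcn-3B* encodes the complex known to assemble V1 onto V0, with 1446, 1556 and 1225 normalized counts and replicate 3 lowest (chi-square test, adjusted p 1.33e-05). *Rbcn-3B* had 566, 568 and 529. Per kb of gene span, *Rbcn-3A* stood at 95.6 ± 11.4 and *Rbcn-3B* at 70.1 ± 2.8. The median of the *Vha* genes with a row was 75.3, and their range was wide.

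Among the regulators, *Mitf*, the fly relative of the mammalian factor TFEB that drives lysosomal genes, had 427, 402 and 468 normalized counts. *mTor*, the kinase that holds autophagy back, had 365, 276 and 309, and *raptor*, its partner, 382, 379 and 297. *AMPKalpha*, the energy-sensing kinase, had 302, 306 and 243. Of the lipid kinase complex that holds Atg6, *Pi3K59F*, the catalytic subunit, stood at 30.6 ± 3.0 normalized counts per kb of gene span, *Vps15* at 27.3 ± 2.3 and *Uvrag* at 49.1 ± 2.5, near or above *Atg6* and *Atg14*.

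The cargo receptor gene *ref(2)P* had 378, 329 and 348 normalized counts, or 114 ± 8 per kb of gene span. The mitophagy kinase gene *Pink1* had 406, 424 and 394, while *park*, the ubiquitin ligase gene that acts with it, had 16.7, 46.3 and 31.7 from 13, 31 and 24 reads. Of the fusion genes, *Epg5*, a tether, had 522, 521 and 452, and the SNARE gene *Snap29* had 25.7, 10.5 and 21.2 from 20, 7 and 16 reads. *Syx17*, the autophagosomal SNARE, and *Vamp7*, its lysosomal partner in flies, lay between them, at 46.4 ± 7.0 and 89.6 ± 6.7 normalized counts. Per kb of gene span, *Vamp7* (62.9 ± 4.7) and *Epg5* (59.1 ± 4.8) overlapped within the spread between libraries. *Syx17* (27.6 ± 4.2) and *Snap29* (14.9 ± 6.1) stood below them. Of the lysosomal genes, *spin*, an efflux permease, stood highest in normalized counts at 448 ± 31, then *Lamp1*, a membrane glycoprotein, at 319 ± 33. Per kb of gene span their order was reversed, with *Lamp1* at 86.0 ± 8.8 and *spin* at 33.8 ± 2.3. The protease genes *CtsL1* and *cathD* had 166 ± 9 and 143 ± 28 normalized counts. *Gba1b*, a glucocerebrosidase gene, had 0, 5 and 8 reads, and *Gba1a* and *Trpml* had no row.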

How the data were processed

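Nuclear RNA-seq of 3 libraries was used. The values the authors deposited are log2 of normalized counts plus 1, in a single table of 7602 genes, and the submitters' processing notes name Trimmomatic, STAR, SAMtools and DESeq2 and the builds dm6 and BDGP6, with no versions or roles. The counting program, strand setting and gene filter are not given in the sources used here. Raising 2 to each deposited log2 value and subtracting 1 gave whole multiples of 1 step per library for 100% of values, within a tolerance of 0.001, and division by the step recovered reads. Columns of sample values without a sample numbered 0.

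Symbols came from a table that matched 7553 identifiers. Spans came from the RefSeq table of Release 6 plus ISO1 MT, for 7541 genes. Levels are log2(normalized count + 1) minus log2(span in kb). The design had named exon length, with coding length as its substitute; span was used in their place. Ratios are per library, with mean, SD and an exact two-sided sign-flip permutation test. The software was Python 3.11.15 with scipy 1.17.1, pandas 2.3.3, numpy 2.4.6 and matplotlib 3.10.9, and the chi-square test was tested on simulated data. Reads can include PCR copies, so this test covers counting error only. Members, gene lists and paralog classes were chosen with earlier results of these data known. The genes named are the members, the listed pathway genes, genes overlapping members and some of the markers. The alternatives varied pseudocount, length, scaling, minimum mean, threshold and replicates.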

Additional observations from a re-analysis of the deposited data

How the results depend on the processing

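The difference between family medians (*Vha* minus *Atg*, 1.27 per kb of gene span) reversed to −0.20 without division by length and to −1.60 with members lacking a row set at 0, which by construction lowers *Vha*, the family with more such genes. It was 1.17 with members that overlap another gene with a row left out; this setting was chosen after seeing the data. The difference between broadly used and tissue-restricted *Vha* genes (0.85) was 0.74 without division by length and 2.16 without overlapping members. With members lacking a row at 0 it was 5.76. That setting by construction lowers the tissue-restricted class, in which 13 of 16 genes had no row, so nothing is read from this value. A pseudocount of 10 moved the paralog log2 ratios to −2.86 for *Vha36-3*, −5.37 for *Vha100-2*, −3.27 for *VhaM9.7-a*, −4.11 for *VhaM9.7-b* and −0.66 for *VhaAC45RP*; without division by length they were −5.33 for *Vha100-2*, −3.70 for *VhaM9.7-b* and −1.10 for *VhaAC45RP*. The chi-square test called 448 genes and 0 members at an adjusted p under 0.01, against 674 and 3, and 5 members under equal totals. With 1 replicate left out it called 243 to 681 genes and 0 to 3 members, 243 and 0 without replicate 3 and 342 and 1 without replicate 2. The cause of these moves was not tested. Depth limits genes such as *Vha36-3*, with 4 to 11 reads. Not run were division by exon or coding length and the promoter motif search. No paired analysis was possible because 1 group of RNA libraries has values.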

Other observations

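In 4 places, paralogs of a V-ATPase subunit lie close to each other on the chromosome. *Vha68-2* and *Vha68-3* lie 178 bases apart on 2L, *Vha100-4* and *Vha100-2* 517 bases apart on 3R, and *VhaPPA1-2* and *VhaPPA1-1* 2052 bases apart on 3R with 1 other gene between them. In each of these 3 pairs 1 gene had a row and its neighbour did not. *Vha16-3* and *Vha16-2*, 985 bases apart on 3L, both had none. Over the whole family 19 of 33 *Vha* genes had a row, and a missing row sets no limit on a level, so nothing is read from these pairs. Of the genes with a row in these pairs, *Vha68-2* and *Vha100-2* were themselves the lower paralog of their subunit. The higher paralog *Vha68-1* lies in the same region of 2L (13000770 to 13004107, with *Vha68-2* at 12974322 to 12978607), but not directly beside it. *Vha100-1* lies on 3R at 29131193 to 29137980, far from *Vha100-2* at 18390323 to 18399169.

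Normalized counts were higher for genes with a longer span. Spearman's rho between mean normalized count and gene span was 0.60 across the 19 *Atg* genes with a row, 0.38 across the 19 *Vha* genes and 0.49 across 7541 genes of the table. These correlations are across genes of the same libraries, which are not independent replicates.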
